A study of Mus musculus with 12 samples.

Results

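Irf8, Bcl6, Maf, Klf2 and Klf4 encode transcription factors of the macrophage lineage that are known to restrain osteoclast formation. They were taken by symbol for that known role, and are 5 of the 55414 genes counted in each library. RNA was sequenced from 12 cultures of osteoclasts, the bone-resorbing cells with many nuclei. Macrophages from the bone marrow of male mice aged 7 to 8 weeks were expanded in M-CSF, a macrophage growth factor, at 30 ng/ml. From day 3 they received M-CSF together with RANKL, the signal for osteoclast formation, for 4 days. The 4 groups of 3 libraries were wild type Hes1 loxP, Notch2 mutant Hes1 loxP, wild type Hes1 deletion and Notch2 mutant Hes1 deletion. In the Hes1 loxP groups the gene carried loxP sites and was not deleted, so no group was free of a modified Hes1 gene as far as the labels say. The sources used here do not give the nature of the Notch2 mutation, the means of deleting Hes1 or the cells in which the deletion acted. The labels call the 3 libraries of a group biological replicates, and nothing states that each came from a separate mouse, so p-values measure only the spread between these libraries, which may be technical.

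Osteoclasts arise from macrophage precursors when RANKL raises NFATc1, the master transcription factor of the osteoclast programme, and several factors that keep a cell a macrophage hold that programme back. IRF8 is known to bind NFATc1 and block it, BCL6 to repress Nfatc1 and osteoclast genes such as Dcstamp and Ctsk, and KLF2 and KLF4 to hold monocytes in a resting state. MAF maintains macrophage identity genes, and PRDM1 (BLIMP1), itself raised by RANKL, is known to silence Irf8 and Bcl6. Notch receptors act through the DNA-binding protein RBPJ, which is also known to restrain osteoclast formation, and HES1 is a repressor that Notch signals induce.

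The promoters of 4 of the 5 genes were found by symbol in a RefSeq table (build GRCm38.p6), as windows of 300 bases around the start site. They were read for the motifs of the factors that the genotypes bear on: TGGGAA, the core of RBPJ sites, CACGNG, the class C site of HES repressors, CACNAG, their N box, and GAAA repeated after any 2 bases, the interferon-stimulated response element through which IRF8 can act. Both strands were searched. The 3 windows with a match are printed 5′ to 3′ along the gene, with matched letters in capitals: Irf8 at chr8:120736108-120736407 (plus strand), Bcl6 at chr16:23988803-23989102 (minus strand) and Klf4 at chr4:55532426-55532725 (minus strand).
Irf8: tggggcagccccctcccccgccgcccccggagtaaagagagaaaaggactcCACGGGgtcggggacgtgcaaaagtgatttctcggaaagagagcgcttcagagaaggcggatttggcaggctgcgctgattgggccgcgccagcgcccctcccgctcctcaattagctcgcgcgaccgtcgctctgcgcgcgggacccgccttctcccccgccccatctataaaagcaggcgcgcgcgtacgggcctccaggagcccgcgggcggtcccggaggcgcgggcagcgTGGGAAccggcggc
Bcl6: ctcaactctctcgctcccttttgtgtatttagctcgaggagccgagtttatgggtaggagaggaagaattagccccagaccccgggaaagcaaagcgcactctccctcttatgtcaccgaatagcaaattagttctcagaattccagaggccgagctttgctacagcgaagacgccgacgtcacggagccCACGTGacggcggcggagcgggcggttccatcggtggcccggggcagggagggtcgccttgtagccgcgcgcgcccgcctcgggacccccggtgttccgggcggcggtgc
Klf4: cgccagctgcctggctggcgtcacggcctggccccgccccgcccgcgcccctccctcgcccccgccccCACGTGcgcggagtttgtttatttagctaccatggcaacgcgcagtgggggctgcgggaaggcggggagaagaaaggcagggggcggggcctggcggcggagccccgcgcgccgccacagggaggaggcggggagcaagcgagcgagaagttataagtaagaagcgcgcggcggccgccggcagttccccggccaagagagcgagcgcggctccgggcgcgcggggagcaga
Irf8 held 1 RBPJ core, TGGGAA, from position 36 after the start site, and 1 class C match, CACGGG, at position -199. Bcl6 held CACGTG at position -60 and Klf4 held CACGTG at position -182. These letters read the same on both strands and are also the E box of other basic helix-loop-helix factors. Klf2 held none of the 4 motifs in its window (69.3% G and C), and no window held an N box or the interferon-stimulated response element. No 2 matches overlapped. Among 32841 promoters of the same length, 25.6% held TGGGAA, 27.5% CACGNG, 42.5% CACNAG and 3.44% the interferon-stimulated response element, so the RBPJ core and the class C match are common letters in such windows. A match is a description of letters and not of binding.

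The libraries held 13832368 to 19293772 counts assigned to genes, and values are given as CPM, the counts scaled to a common library total. Hes1 gave 6, 11 and 6 counts in the wild type Hes1 loxP libraries, 3, 2 and 2 in Notch2 mutant Hes1 loxP, 0, 0 and 2 in wild type Hes1 deletion and 0, 1 and 1 in Notch2 mutant Hes1 deletion, so the targeted gene was scarce throughout and lowest after deletion. Notch2 lay between 143 and 175 CPM in the 12 libraries, and its groups overlapped. Replicate 3 of wild type Hes1 deletion stood apart, with a chi-square per gene of 8.41 and 8.04 against its 2 replicates, where the other pairs within groups gave 2.40 to 7.77. Without it 289 genes, against 104 with it, were called for the Notch2 mutation with Hes1 intact, and 158 against 253 for the average over both Hes1 states. Markers fitted the label of osteoclasts: the summed level of 10 osteoclast markers was 31219 to 50298 CPM, of 10 macrophage and monocyte markers 4433 to 4901 CPM, of 10 stromal markers 101 to 297 CPM, of 9 neutrophil markers 181 to 329 CPM and of 8 dendritic cell markers 31.5 to 54.9 CPM. Of 8 endothelial markers (8.75 to 13.2 CPM) Cldn5 was at 0, and 9 lymphocyte markers summed to 3.17 to 6.08 CPM.

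Of the 5 genes, Maf was the one that passed the test by edgeR, in 1 comparison: its level was lower in Notch2 mutant than in wild type osteoclasts where Hes1 was intact. Maf (ENSMUSG00000055435, chromosome 8, 115682942 to 115707794, minus strand, GRCm38) measured 159.7, 142 and 139.7 CPM in wild type Hes1 loxP and 132, 106 and 96.3 CPM in Notch2 mutant Hes1 loxP. All 3 mutant libraries lay below all 3 controls, which 11.1% of genes tested did in this comparison. The group means were 147 ± 11 and 111 ± 18.5 CPM (SD, n = 3), and the log2 fold change was -0.38 ± 0.08 (SE), with a 95% interval of -0.56 to -0.20, which is 0.770 times the control level. By edgeR's quasi-likelihood test over 13403 genes, with Benjamini-Hochberg adjustment and a threshold of 0.05, Maf fell (adjusted p = 0.0461). In that comparison 104 genes (0.776%) were called and 85 (0.634%) were called as lower, and 5.77% of genes had a lower fold change than Maf. DESeq2 and limma-voom called Maf too. The call rested on individual libraries: it was lost without wild type Hes1 loxP replicate 1 (adjusted p = 0.173) or 2 (0.0847), without Notch2 mutant Hes1 loxP replicate 2 (0.102) or 3 (0.202), without replicate 2 of wild type Hes1 deletion (0.0534) and without Notch2 mutant Hes1 deletion replicate 3 (0.0616). Without wild type Hes1 deletion replicate 3, which stood apart, Maf was called at -0.39 (adjusted p = 0.0235). In bulk RNA, fewer cells of a type and less RNA per cell cannot be told apart.

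Other cell markers moved with the same groups. Summed osteoclast markers were 45601 to 50298 CPM in Notch2 mutant Hes1 loxP against 38832 to 41775 CPM in wild type Hes1 loxP. Summed stromal markers were 101 to 208 against 217 to 254 CPM, and neutrophil markers 192 to 249 against 254 to 329 CPM. Dendritic cell markers were 38.2 to 52.8 against 31.5 to 37.4 CPM. These 4 sums did not overlap between the groups, with osteoclast and dendritic cell markers higher and the other two lower in the mutant, and edgeR called 0 of the 5 dendritic cell markers tested (4 at an unadjusted p under 0.05, and 0 by DESeq2 and limma-voom). Macrophage and monocyte markers overlapped, at 4433 to 4901 against 4593 to 4822 CPM. In the edgeR fit 3 of the 10 macrophage markers (Msr1, Fcgr1 and Adgre1) fell, with fitted values above 0 for 4 of the 10, as did the stromal marker Cxcl12 and the neutrophil marker Mmp8, while the osteoclast fusion gene Ocstamp rose. In the Hes1 deletion groups, summed osteoclast markers were 37471 to 41656 CPM in Notch2 mutant against 31219 to 37446 CPM in wild type. Stromal markers there were 177 to 257 against 286 to 297 CPM. These sums did not overlap either, while the neutrophil, dendritic cell and macrophage sums did. The part of these markers in the Maf result was not tested.

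Where Hes1 was deleted, Maf measured 127, 125 and 135 CPM in wild type and 127, 112 and 123 CPM in Notch2 mutant libraries. These groups overlapped, and the log2 fold change was -0.08 (95% interval -0.26 to 0.10, adjusted p = 0.897, edgeR). The test of the difference between the Notch2 effects, the interaction, gave 0.30 ± 0.12 (SE, interval 0.04 to 0.55, adjusted p = 0.999 by edgeR), so a difference between the Hes1 states was not shown. Averaged over both Hes1 states, the Notch2 log2 fold change of Maf was -0.23 ± 0.06 (interval -0.36 to -0.10, adjusted p = 0.0535, edgeR). That value lay just outside the threshold, and DESeq2 and limma-voom put it inside (adjusted p = 0.0151 and 0.0475). In edgeR the average passed with replicate 1 of Notch2 mutant Hes1 loxP left out (-0.30, adjusted p = 0.00542), and was -0.22 with replicate 3 of wild type Hes1 deletion left out (adjusted p = 0.0970). Wild type Hes1 deletion libraries lay wholly below wild type Hes1 loxP libraries in Maf, which 3.57% of genes did, with a log2 fold change of -0.21 (interval -0.38 to -0.03, adjusted p = 0.782, edgeR). This comparison and the first share the wild type Hes1 loxP libraries, the highest of the 4 groups. In Notch2 mutants the Hes1 deletion gave 0.09 (interval -0.09 to 0.27, adjusted p = 0.977, edgeR).

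**Figure D1:**
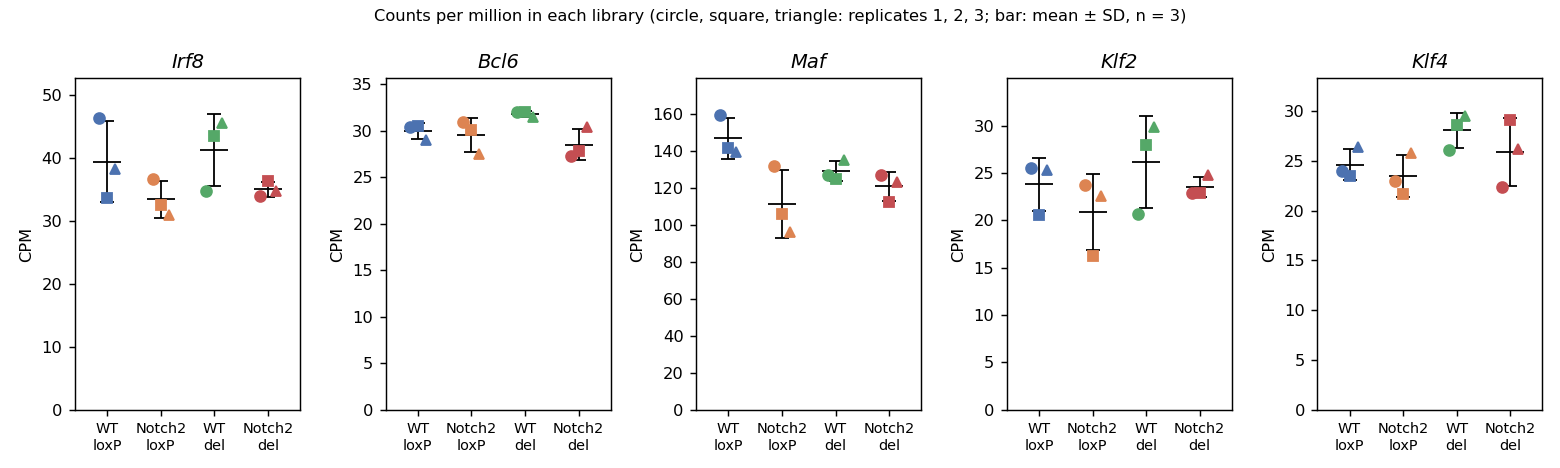
CPM (y axis, from 0) of the 5 genes in each of the 12 libraries, by group (x axis; WT, wild type; del, deletion). Marker shapes are replicates, and bars show the mean ± SD of 3 libraries. Maf in Notch2 mutant Hes1 loxP (96.3 to 132 CPM) lies below wild type Hes1 loxP (139.7 to 159.7 CPM), and most other groups overlap.

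Irf8, the factor that binds and blocks NFATc1 (ENSMUSG00000041515, chromosome 8, 120736358 to 120756694, plus strand), did not pass the test in any comparison. It measured 46.3, 33.7 and 38.3 CPM in wild type Hes1 loxP and 36.7, 32.6 and 31.0 CPM in Notch2 mutant Hes1 loxP. With Hes1 deleted it measured 34.7, 43.6 and 45.6 CPM in wild type and 34.0, 36.4 and 34.8 CPM in Notch2 mutant. The mutant groups sat at the low end of the range, but each overlapped its control because 1 wild type library of each Hes1 state (33.7 and 34.7 CPM) was as low as the mutants. The Notch2 log2 fold change was -0.21 (95% interval -0.43 to 0.01, adjusted p = 0.379) with Hes1 intact and -0.22 (interval -0.44 to -0.00, adjusted p = 0.745) with Hes1 deleted. Averaged over both states it was -0.22 ± 0.07 (SE, interval -0.37 to -0.06, adjusted p = 0.139, edgeR). Without wild type Hes1 deletion replicate 1, the low library, the averaged value was -0.27 and passed (adjusted p = 0.0463, edgeR). Without wild type Hes1 deletion replicate 3, which stood apart, it was -0.19 and did not pass (adjusted p = 0.265, edgeR). Over all libraries left out in turn, the adjusted p by edgeR was 0.0463 to 0.294. The Hes1 deletion gave 0.05 in wild type (interval -0.16 to 0.27) and 0.04 in Notch2 mutant (interval -0.18 to 0.27). Without wild type Hes1 deletion replicate 3 the value in wild type was -0.01.

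Bcl6, a zinc finger repressor (ENSMUSG00000022508, chromosome 16, 23965052 to 23988852, minus strand), was the steadiest of the 5. It measured 30.4, 30.5 and 29.0 CPM in wild type Hes1 loxP and 30.9, 30.1 and 27.4 CPM in Notch2 mutant Hes1 loxP, which overlapped. With Hes1 deleted it measured 32.0, 32.0 and 31.5 CPM in wild type and 27.2, 27.8 and 30.4 CPM in Notch2 mutant. There the mutant lay wholly below wild type, as did 7.48% of genes, with a log2 fold change of -0.15 (interval -0.29 to -0.01, adjusted p = 0.744, edgeR). Wild type Hes1 deletion also lay wholly above wild type Hes1 loxP, as did 7.28% of genes, with a log2 fold change of 0.07 (interval -0.07 to 0.21, adjusted p = 0.951, edgeR). With Hes1 intact the Notch2 value was -0.00 (interval -0.14 to 0.14, adjusted p = 0.999). Bcl6 lies 6.08 Mb from Hes1 on chromosome 16, the nearest of the 5 genes to the targeted locus, and the Hes1 deletion gave -0.01 (interval -0.11 to 0.09) averaged over both genotypes.

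Klf2 and Klf4 are zinc finger factors of one family. Klf2 (ENSMUSG00000055148, chromosome 8, 72319033 to 72321656, plus strand) measured 25.5, 20.6 and 25.4 CPM in wild type Hes1 loxP, 23.7, 16.2 and 22.6 CPM in Notch2 mutant Hes1 loxP, 20.7, 28.0 and 29.9 CPM in wild type Hes1 deletion and 22.8, 22.9 and 24.7 CPM in Notch2 mutant Hes1 deletion. The groups overlapped in every comparison, and the lowest and the highest library (16.2 and 29.9 CPM) were in Notch2 mutant Hes1 loxP and wild type Hes1 deletion. Its Notch2 log2 fold change was -0.17 (interval -0.46 to 0.12, adjusted p = 0.639) with Hes1 intact and -0.14 (interval -0.43 to 0.15, adjusted p = 0.890) with Hes1 deleted. Klf4 (ENSMUSG00000003032, chromosome 4, 55527143 to 55532466, minus strand) measured 24.0, 23.5 and 26.4 CPM in wild type Hes1 loxP, 23.0, 21.7 and 25.8 CPM in Notch2 mutant Hes1 loxP, 26.1, 28.6 and 29.5 CPM in wild type Hes1 deletion and 22.4, 29.1 and 26.2 CPM in Notch2 mutant Hes1 deletion. Its groups overlapped in every comparison. Klf4 had the highest Hes1 deletion value of the 5, at 0.14 ± 0.07 averaged over both genotypes (SE, interval -0.00 to 0.28, adjusted p = 0.724, edgeR), and a Notch2 value of -0.07 (interval -0.21 to 0.07, adjusted p = 0.645).

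Counted together, 1 of the 5 genes was called for the Notch2 mutation with Hes1 intact, and edgeR called 0 of 5 in each of the other comparisons. For the Notch2 mutation with Hes1 deleted, 2 genes (0.0149%) of all tested were called, and 2 of the 5 had an unadjusted p under 0.05, as did 6.69% of all genes tested. For the Hes1 deletion, 5 genes (0.0373%) were called in wild type, 5 (0.0373%) in Notch2 mutant and 11 (0.0821%) averaged over both, with 1, 0 and 0 of the 5 under an unadjusted p of 0.05, against 5.93, 4.76 and 6.89% of all genes. The interaction called 0 genes (506 at an unadjusted p under 0.05, and 0 by DESeq2 and by limma-voom), with 1 of the 5 under 0.05. Averaged over both Hes1 states, the Notch2 mutation called 253 genes (1.89%), and 2 of the 5, Maf and Irf8, had an unadjusted p under 0.05, as did 16.3% of all genes. DESeq2 and limma-voom called 0 of 5 in these comparisons, apart from Maf in the average over both Hes1 states. The fitted Notch2 values were below 0 for 5 of 5 genes in each Hes1 state, with medians of -0.17 and -0.14 against a median of 0.00 for all genes tested. Bcl6 and Klf4 took both signs when single libraries were left out with Hes1 intact (-0.03 to 0.04 and -0.13 to 0.02).

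**Figure D2:**
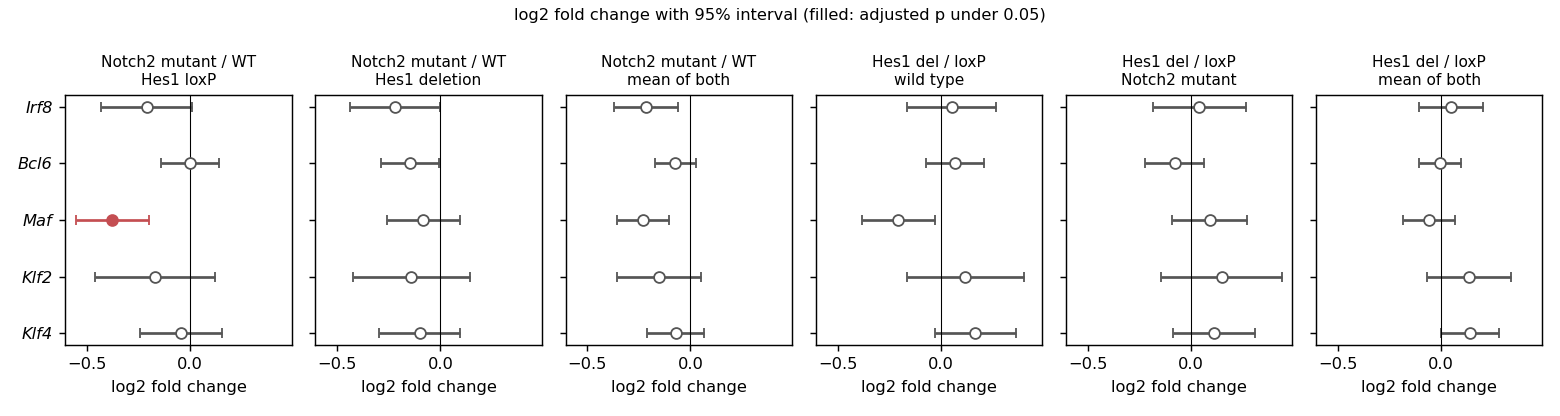
Log2 fold changes (x axis) with 95% intervals of the 5 genes (y axis) in 6 comparisons from one edgeR fit of 13403 genes. A filled point marks an adjusted p under 0.05, which Maf reached for the Notch2 mutation with Hes1 intact (-0.38), and the points of the 3 Notch2 panels lie at or below 0.

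The known target genes of these factors were read from the same fit, as lists of genes that each factor is known to activate or repress. Of 7 macrophage identity genes of the kind that MAF maintains, edgeR called 0 for the Notch2 mutation with Hes1 intact, with 5 at an unadjusted p under 0.05 and 0 called by DESeq2 or limma-voom. In that comparison 14.2% of all genes tested had an unadjusted p under 0.05. The fitted values were below 0 for 7 of 7, with a median of -0.36 against 0.00 for all genes. C1qa and C1qb, chains of the complement component that macrophages secrete, measured 249.5 ± 24.2 and 289 ± 41.6 CPM in wild type Hes1 loxP and 182 ± 27.5 and 214 ± 26.9 CPM in Notch2 mutant Hes1 loxP (SD, n = 3). Their log2 fold changes were -0.43 (adjusted p = 0.0843) and -0.40 (adjusted p = 0.0793). Axl, a receptor for apoptotic cells, measured 54.9 ± 4.57 against 38.8 ± 4.85 CPM (-0.47, adjusted p = 0.0930), and C1qc gave -0.36 (adjusted p = 0.0950). The same 7 genes had a median of -0.13 with Hes1 deleted, where 0 were called and 0 had an unadjusted p under 0.05. Averaged over both states the median was -0.26, with 0 called by the 3 tools and 5 under an unadjusted p of 0.05.

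Of 7 genes that BCL6 is known to repress, Ccl7 fell with Hes1 intact. Ccl7, a monocyte-attracting chemokine, measured 21.8 to 26.0 CPM in wild type Hes1 loxP and 7.87 to 12.3 CPM in Notch2 mutant Hes1 loxP, with no overlap, and a log2 fold change of -1.27 ± 0.24 (SE, adjusted p = 0.0196, edgeR). The call was lost without wild type Hes1 loxP replicate 1 (adjusted p = 0.0736) or 2 (0.0606), or Notch2 mutant Hes1 loxP replicate 1 (0.0644) or 3 (0.109). Averaged over both Hes1 states, Ccl7 fell by 0.91 on the log2 scale (adjusted p = 0.0125), and Ctsk and Dcstamp rose by 0.21 and 0.18 (adjusted p = 0.0364 and 0.0463), where 1.12% of all genes were called as lower and 0.768% as higher. That Ccl7 call was lost without Notch2 mutant Hes1 deletion replicate 3 (adjusted p = 0.0527). Ctsk and Dcstamp, with Nfatc1, are also among the 10 osteoclast markers, of which 6 were called as higher in that average, and 4 of the 10 macrophage markers were called as lower. Their part in these results was not tested. Ctsk encodes the collagen-cutting protease cathepsin K, and Dcstamp encodes a membrane protein of cell fusion. The Ctsk call was lost without wild type Hes1 loxP replicate 1 or 2, or without replicate 1 or 3 of either Notch2 mutant group (0.18 to 0.22, adjusted p = 0.0515 to 0.124). The Dcstamp call was lost without wild type Hes1 loxP replicate 1 or 2, Notch2 mutant Hes1 loxP replicate 2 or 3, or any library of the Hes1 deletion groups (0.14 to 0.19, adjusted p = 0.0540 to 0.148). In the average over both Hes1 states, 2 genes of the list were called as higher and 1 as lower, and Bcl6 was not called. With Hes1 intact, 6 of the 7 had an unadjusted p under 0.05 in edgeR, as did 14.2% of all genes tested. The fitted values of the 7 went both ways, with 4 above 0 and 3 below. A part of BCL6 in these values was not tested. Ctsk fell with the Hes1 deletion, by 0.99 in wild type (adjusted p = 4.84e-07) and by 1.11 in Notch2 mutant (adjusted p = 8.89e-08), from 9026 ± 209 to 4586 ± 456 CPM and from 10631 ± 434 to 5048 ± 219 CPM (SD, n = 3). Those calls held in all 19 alternatives of each comparison. The means of deleting Hes1 is not given, so loss of Hes1 and the means itself cannot be told apart in this fall of Ctsk.

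Of 7 genes that KLF2 or KLF4 are known to activate, 5 were measured well enough to test, and Nos3 (52 counts over the 12 libraries) and Retnla (0 counts) were not. Averaged over both Hes1 states, Mrc1, the macrophage mannose receptor, fell by 0.45 on the log2 scale (adjusted p = 0.0257, edgeR). S1pr1, a receptor for sphingosine 1-phosphate, fell by 0.67 (adjusted p = 0.0421, edgeR). In that average 1.12% of all genes tested were called as lower, and Klf2 and Klf4 were not called. Mrc1 measured 88.8 ± 12.5 and 58.0 ± 13.4 CPM in wild type and Notch2 mutant with Hes1 intact, and 71.5 ± 8.53 and 57.3 ± 8.76 CPM with Hes1 deleted. S1pr1 measured 8.65 ± 0.816 and 4.76 ± 0.390 CPM, and then 8.15 ± 0.984 and 5.85 ± 2.97 CPM. The Mrc1 call was lost without wild type Hes1 loxP replicate 1 or 2, wild type Hes1 deletion replicate 3 or Notch2 mutant Hes1 deletion replicate 3 (-0.42 to -0.41, adjusted p = 0.0527 to 0.0966). The S1pr1 call was lost without each of the 12 libraries in turn except Notch2 mutant Hes1 deletion replicate 1 (-0.71 to -0.55, adjusted p = 0.0544 to 0.129). With Hes1 intact alone, edgeR called 0 of these 5 genes (2 at an unadjusted p under 0.05, and 1 each by DESeq2 and limma-voom), and Mrc1 gave -0.59 (adjusted p = 0.0520). Mrc1 is also one of the 10 macrophage markers. A part of KLF2 or KLF4 in these values was not tested. For the Hes1 deletion edgeR called 0 of 5 in either genotype, with 1 in wild type and 0 in Notch2 mutant at an unadjusted p under 0.05 and 0 by the other tools. Of 5 myeloid genes activated through IRF8, 4 were tested and edgeR called 0 in every comparison. With Hes1 intact, Cybb and Ctsc gave -0.25 and -0.22 (adjusted p = 0.151 and 0.174), 2 had an unadjusted p under 0.05, and DESeq2 and limma-voom called 0.

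**Figure D3:**
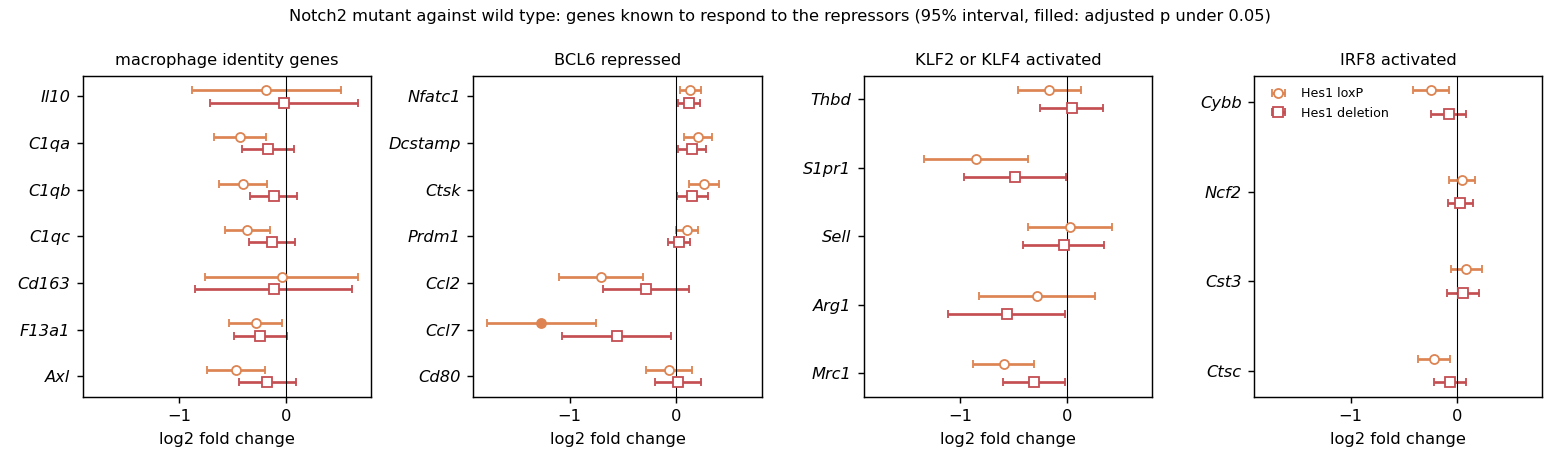
Log2 fold changes (x axis) with 95% intervals for known target genes (y axis) of the repressors, Notch2 mutant against wild type, with Hes1 intact (circles) and deleted (squares). The filled circle is Ccl7 (-1.27), and 7 of 7 macrophage identity genes lie below 0 in both states without passing the threshold.

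Among 7 other transcription factors known to restrain osteoclast formation, 6 were tested, and Lhx2 (15 counts over the 12 libraries) was not. Rbpj, through which Notch receptors act, measured 158.9 to 172 CPM and 157 to 165 CPM in the wild type groups and 140.4 to 149 CPM and 139.8 to 149 CPM in the Notch2 mutant groups, with Hes1 intact and deleted. All 6 mutant libraries lay below all 6 wild type libraries, as did those of 0.94% of genes tested. Averaged over both Hes1 states Rbpj fell by 0.16 on the log2 scale (adjusted p = 0.0176, edgeR), and the call was lost without wild type Hes1 loxP replicate 2 (adjusted p = 0.0502) or Notch2 mutant Hes1 deletion replicate 3 (0.0740). In the single Hes1 states it gave -0.18 (adjusted p = 0.0625) and -0.13 (adjusted p = 0.650). Id1, an inhibitor of basic helix-loop-helix factors, gave -0.55 with Hes1 intact (adjusted p = 0.0956). It did not pass the threshold, and with Hes1 intact edgeR called 0 of the 6 (3 at an unadjusted p under 0.05, 1 by DESeq2 and 0 by limma-voom). The factors that silence the repressors, Prdm1, Dnmt3a, Ezh2, Hdac3 and Nfatc1, were not called by edgeR in any comparison. With Hes1 intact their Notch2 median was 0.10, and 3 of 5 had an unadjusted p under 0.05, with 0 called by DESeq2 and limma-voom. Nfatc1 and Prdm1 are also in the list of genes that BCL6 represses. Averaged over both states, Nfatc1 gave 0.13 (adjusted p = 0.0602), and DESeq2 and limma-voom each called 1 of the 5.

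The wider families gave no call by edgeR in any of the 7 comparisons. Of 8 other IRF genes 7 were tested, of 15 other KLF genes 10 and of 7 in the list of MAF relatives and the BCL6 paralog 5. In the Notch2 comparison with Hes1 intact, 2, 2 and 0 of them had an unadjusted p under 0.05, with medians of -0.16, -0.03 and -0.05, and in the other comparisons 0 to 4 members of a family did. DESeq2 and limma-voom called 0 of them in all 7. Klf8, a low member (0.949 CPM per kilobase), had the smallest adjusted p among these, at 0.0981 with a log2 fold change of 0.55. Irf5 and Irf7, which act in innate immune signalling, gave -0.16 and -0.42 (adjusted p = 0.189 and 0.241). Immediate early genes, which rise quickly when cells are handled, summed to 717 to 792 CPM over the 12 libraries, and edgeR called 0 of the 11 tested in any comparison (0 to 4 at an unadjusted p under 0.05). For the Notch2 mutation with Hes1 intact DESeq2 called 1 of them and limma-voom 0, and Ier3 gave -0.62 (adjusted p = 0.0668).

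Levels were compared between genes per kilobase of annotated exons. In wild type Hes1 loxP libraries Maf stood at 17.8 ± 1.34 CPM per kilobase (SD, n = 3), Klf2 at 12.9 ± 1.52, Klf4 at 8.08 ± 0.498, Irf8 at 5.59 ± 0.905 and Bcl6 at 4.47 ± 0.127. That order of means held in all 4 groups. Neighbours did not always differ beyond their spread: in Notch2 mutant Hes1 loxP Maf (11.7 to 16) overlapped Klf2 (8.80 to 12.8), and Irf8 (4.40 to 5.21) overlapped Bcl6 (4.10 to 4.62). In wild type Hes1 deletion Maf (15.2 to 16.4) and Klf2 (11.2 to 16.2) overlapped. Per kilobase of the longest transcript, Irf8 (11.4 ± 1.84 in wild type Hes1 loxP) moved above Klf4 (8.13 ± 0.501) in all 4 groups, so their order depends on the length used. Averaged over the 12 libraries, 75.8% of 13380 genes had a lower level per kilobase of exons than Maf, 71.5% than Klf2, 61.3% than Klf4, 49.7% than Irf8 and 45.5% than Bcl6. On the same scale, of the 5 factors that silence the repressors, Nfatc1 stood at 135, Dnmt3a at 55.1 and Prdm1 at 27.7 CPM per kilobase, above all 5 repressors. Hdac3 (12.7) lay below Maf and Klf2 (15.4 and 12.8), and Ezh2 (6.75) below Klf4 (8.37) as well. Per kilobase of the longest transcript, Ezh2 (16.2) and Hdac3 (14.4) lay above Klf2 (12.8) and below Maf. The places of Ezh2 and Hdac3 thus depend on the length used, while Nfatc1, Dnmt3a and Prdm1 stayed above all 5 repressors. Exons of Maf overlap the antisense gene Gm15655 (33 counts over the 12 libraries against 25224 for Maf), and those of Bcl6 overlap Gm37419 (0 counts against 5968).

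**Figure D4:**
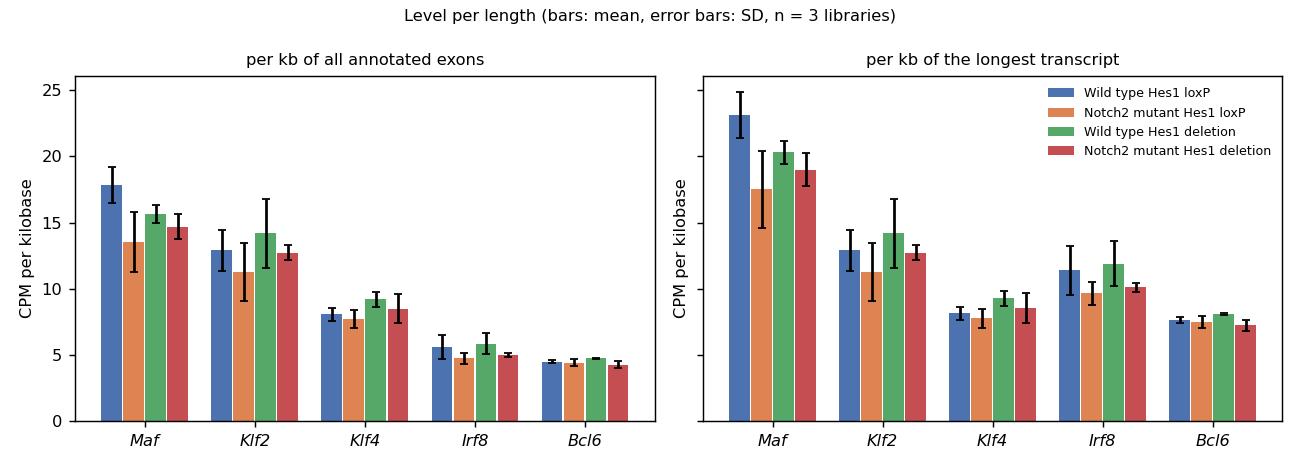
Level (y axis, CPM per kilobase, bars from 0 at the mean of 3 libraries, error bars SD) of the 5 genes (x axis) in the 4 groups, per kilobase of all annotated exons (left) and of the longest transcript (right). Maf is highest on both scales, and Irf8 (5.59 and 11.4 in wild type Hes1 loxP) changes place with Klf4 (8.08 and 8.13).

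The 5 genes differed in how much they varied between libraries of a group. Klf2 had a coefficient of variation of 14.8% within groups and Irf8 of 11.7%, where genes within 1.5-fold of their levels had medians of 7.18 and 6.07%. Maf (9.88%, against 4.54%) and Klf4 (9.05%, against 6.99%) varied more than the median of their like, and Bcl6 (4.50%, against 6.54%) varied less. Over the 12 libraries, Irf8 and Klf2 varied together (Pearson r = 0.730, permutation p = 0.00532, Benjamini-Hochberg adjusted over 10 pairs 0.0532; Spearman rho = 0.804, permutation p = 0.00223, adjusted 0.0223). Without the 2 libraries farthest from the median of Irf8, r was 0.690, and with group means removed it was 0.685. Neither of these values was tested, and the permutations moved values freely over the 12 libraries, also between groups. Irf8 with Maf (r = 0.618, permutation p = 0.0316, adjusted 0.105) and Klf2 with Klf4 (r = 0.630, permutation p = 0.0238, adjusted 0.105) dropped to 0.418 and 0.287 without the 2 farthest libraries, and were 0.508 and 0.528 with group means removed. Their rho values were 0.545 (permutation p = 0.0709, adjusted 0.346) and 0.497 (permutation p = 0.104, adjusted 0.346). The other 7 pairs had adjusted values of at least 0.376 for r.

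**Figure D5:**
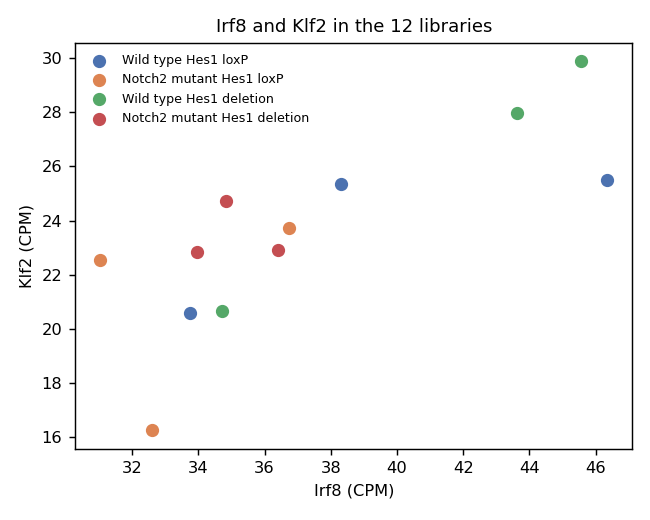
Klf2 (y axis, CPM) against Irf8 (x axis, CPM) in the 12 libraries, coloured by group; neither axis starts at 0. Libraries high in Irf8 tend to be high in Klf2 (Pearson r = 0.730 on log2 CPM), and the lowest Klf2 library (16.2 CPM) is Notch2 mutant Hes1 loxP.

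The genes whose log2 CPM was most like each repressor over the 12 libraries, among 8936 genes of at least moderate level, are given as a description. For Maf they were Lamp1 (r = 0.939), a lysosomal membrane protein, Lrrk2 (0.935), a kinase of phagocytes, and Unc93b1 (0.933), which carries nucleic-acid sensing Toll-like receptors to endosomes. For Irf8 they were Man2a2 (0.890), Tapbpl (0.889) and Tpst1 (0.882), the first an enzyme of glycan processing, the next a helper of antigen loading and the last a tyrosine sulfotransferase. Klf2 was most like Tmcc2 (0.910), Rhbdd3 (0.854) and Tmem110 (0.843), Klf4 most like Spout1 (0.852), Uqcc2 (0.841) and Cmss1 (0.839), and Bcl6 most like Sdccag8 (0.832), Apaf1 (0.830) and Erc1 (0.827). None of these 15 genes is another member of the 5.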

How the data were processed

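RNA was measured in 12 libraries in 4 groups of 3, taken from the labels. The libraries came from a stranded mRNA kit, were pooled, and gave paired reads of 75 bp, per the labels' protocols. Each deposited file lists raw counts by gene ID, without any scaling by the authors. The submitters' processing notes name GRCm38 and the tools HISAT2, SAMtools, Picard, HTSeq and DESeq2. No source used here gives their versions, the annotation or how strand was set, so reads of a gene and its antisense partner may not be separated. The 5 summary entries of each file (15.8 to 19.0% of its total) were left out. IDs were matched to GENCODE M21, which named 52081 of 55414.

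All 12 libraries entered 1 edgeR 4.0.16 quasi-likelihood fit (R 4.3.3; TMM scaling; filterByExpr with a minimum count of 10 and total of 15; 13403 genes; two-sided tests; threshold 0.05), with 7 contrasts of the 4 group means. Standard errors come from the F statistic. CPM uses the counts assigned to genes, without TMM, and lengths are exons of GENCODE M21. Log2 CPM, used for the correlations between genes and between libraries, includes TMM scaling and a prior count of 2. Hes1 fell below the filter and is given as counts. On simulated counts the fit was tested with fold changes set in advance. The alternatives replaced TMM by RLE, dropped the filter, raised it to a mean count of 50, added a replicate block, used DESeq2 1.42.0, or limma-voom (limma 3.58.1), fitted only the groups compared, or left out 1 library. The genes named are the 5 members, list genes called or with the 4 smallest adjusted p in a comparison, and the 3 most like genes of each member. The members and lists were chosen with earlier results of these data known. The correlations between members, and the alternatives for 6 called list genes, were added after the values were seen, and so was the naming of marker genes. The values of 1 list gene are not reported here. Single-cell measurements were not analysed here.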

Additional observations from a re-analysis of the deposited data

How the results depend on the processing

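With 3 libraries a group, 1 library decided several calls. Of 650 alternatives for the members' fold changes, 606 kept direction and side of the threshold and 44 did not. Of 130 alternatives for counts of genes called, 88 stayed within 1.5 times the reported count and 42 did not. For the Notch2 mutation with Hes1 intact 104 genes were called, against 657 without a filter, 242 by DESeq2 and 26 to 289 with 1 library left out (26 without wild type Hes1 loxP replicate 1, 289 without wild type Hes1 deletion replicate 3). With Hes1 deleted 2 were called, against 138 without a filter, 1 at a minimum mean count of 50, 1 by limma-voom and 0 to 5 with 1 library left out. For the Hes1 deletion in wild type 5 were called, against 135 without a filter, 2 at a minimum mean count of 50, 10 by DESeq2 and 3 to 26 with 1 library left out. In Notch2 mutant 5 were called, against 110 without a filter, 2 at a minimum mean count of 50, 3 by limma-voom and 3 to 6 with 1 library left out. The interaction called 0, against 63 without a filter and 0 to 12 with 1 library left out. The Notch2 average called 253, against 853 without a filter, 420 by DESeq2 and 63 to 319 with 1 library left out. The Hes1 average called 11, against 184 without a filter, 6 at a minimum mean count of 50, 20 by DESeq2 and 6 to 16 with 1 library left out.

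Maf with Hes1 intact was called in 11 of 19 alternatives. It was not called at a minimum mean count of 50 (-0.38, adjusted p = 0.0526) or with only the groups compared (-0.39, adjusted p = 0.0626), and leaving out 1 library gave -0.51 to -0.29. Averaged over both Hes1 states it passed without a filter (-0.24), with DESeq2 (-0.23), with limma-voom (-0.24) and without Notch2 mutant Hes1 loxP replicate 1 (-0.30 to -0.19 over all libraries left out). Without a filter, Irf8 averaged over both states passed (-0.22, adjusted p = 0.00344), as it did without wild type Hes1 deletion replicate 1 (-0.27 to -0.16 over all libraries left out), and Maf passed for the Hes1 deletion in wild type (-0.21, adjusted p = 0.0437). Sign changes came only from leaving out a library, in values that were not called: Bcl6 (-0.033 to 0.039) and Klf4 (-0.13 to 0.016) for Notch2 with Hes1 intact, Irf8 (-0.047 to 0.17) for the Hes1 deletion in wild type, Klf2 (-0.010 to 0.24) in Notch2 mutant, Irf8 (-0.13 to 0.093), Klf2 (-0.13 to 0.13) and Klf4 (-0.14 to 0.039) in the interaction, and Irf8 (-0.0011 to 0.11), Bcl6 (-0.031 to 0.011) and Maf (-0.10 to 0.0097) for the Hes1 average. The causes were not tested.

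Over all 4 groups, replicate numbers gave no uniform pairing of the samples. Deviations of same-numbered libraries correlated at -0.09 to 0.11, with 1 of 18 pairs over 0.1, and those of other numbers at -0.10 to 0.12. Of 12 libraries, 7 were closest to their own number. Between wild type and Notch2 mutant Hes1 loxP, same-numbered pairs gave 0.10, 0.11 and 0.08 and the other pairs -0.08 to -0.02. Whether these libraries were handled in pairs was not tested. With a replicate block, Maf averaged over both Hes1 states was -0.23 (adjusted p = 0.0202), and 148 genes were called for Notch2 with Hes1 intact and 325 for the Notch2 average. A fit of only the groups compared could not be made for the interaction and the averages. Depth limits Hes1, with at most 11 counts in a library, and the list genes left untested.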
